A study of Mus musculus with 2 samples.

Results

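Ddx6, G3bp2 and Pabpc1 encode proteins of cytoplasmic RNA granules, and their mRNAs carried 73 of the 11670 read clusters that were listed for tagged FAM120A, 0.626% of the list. The clusters were found inside fixed windows on the strand of each gene, with mm9 positions: chr9:44412500-44449000, plus strand, for Ddx6; chr5:92481000-92513000, minus strand, for G3bp2; and chr15:36525000-36539000, minus strand, for Pabpc1. The windows held 31, 37 and 5 tagged-list clusters respectively, and 0 of the 1134 clusters of the untagged list. The genes were chosen by their names together with the number and place of their clusters in these same lists, so the counts and positions describe the choice and support nothing by themselves. The gene names come from the windows. No mm9 annotation was used, so clusters are given by position and distance, and not as exonic, intronic or UTR.

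FAM120A binds RNA and is found with Argonaute 2, and its RNA contacts were mapped by iCLIP, in which ultraviolet light links protein to RNA and the linked fragments are sequenced after immunoprecipitation. The tagged group was 1 library from TT-FHFam120a mouse embryonic stem cells, which express FLAG-HA-Fam120a. The untagged group was 1 library from TT-Fam120a cells, which express Fam120a without the epitopes and give the background of the FLAG and HA immunoprecipitations. In both lines the gene came from a pSLIK lentivirus and was induced with doxycycline at 2.5 µg/mL. Both groups thus expressed an introduced Fam120a, and whether a line was 1 clone or a pool is not given in the sources used here. The cell type is that of the labels and was not checked against marker genes. Each group had 1 library, so differences between the groups have no replicate check and were not tested. The depth of the libraries is unknown except for their ratio. Intervals on ratios cover counting error alone, and PCR copies may be counted as separate reads. Intervals on shares and medians take the clusters of a gene as independent, which close neighbours need not be.

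DDX6 is a DEAD-box RNA helicase of processing bodies, where it takes part in translational repression and decapping, including repression by microRNAs. G3BP2 is a paralogue of G3BP1, and the pair drives the assembly of stress granules. PABPC1 is the main cytoplasmic poly(A)-binding protein, which promotes translation, protects poly(A) tails and is a common component of stress granules. PABPC1 is also known to bind an A-rich stretch in the 5′ untranslated region of its own mRNA and to repress its translation.

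Ddx6 and G3bp2 shared 1 layout and Pabpc1 had another. In Ddx6 all 31 clusters lay in the last 4000 nt of the window, and in G3bp2 all 37 did. In Pabpc1 the count was 0 of 5, and the clusters lay between 4209 and 13515 nt from the 3′ edge. No interval is set on these shares, since place entered the choice of the genes and neighbouring clusters are not independent. The limit of 4000 nt matters for Pabpc1, since with the last 6000 nt its share was 80%. The 3′ edges are those of the windows and not annotated gene ends, and the cluster nearest to the edge ended 387 nt from it in Ddx6 and 194 nt from it in G3bp2. With clusters at most 1000 nt apart joined into loci, Ddx6 and G3bp2 were 1 locus each, of 3012 and 2587 nt, which is 8.25% and 8.08% of their windows. The remaining 5′ parts of these windows, 33102 and 29220 nt long, held no listed cluster. The windows need not cover whole genes: the RefSeq length of G3bp2 in GRCm38 is 85581 nt, against a window of 32001 nt. Pabpc1 split into 3 loci of 35, 78 and 39 nt.

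**Figure D1:**
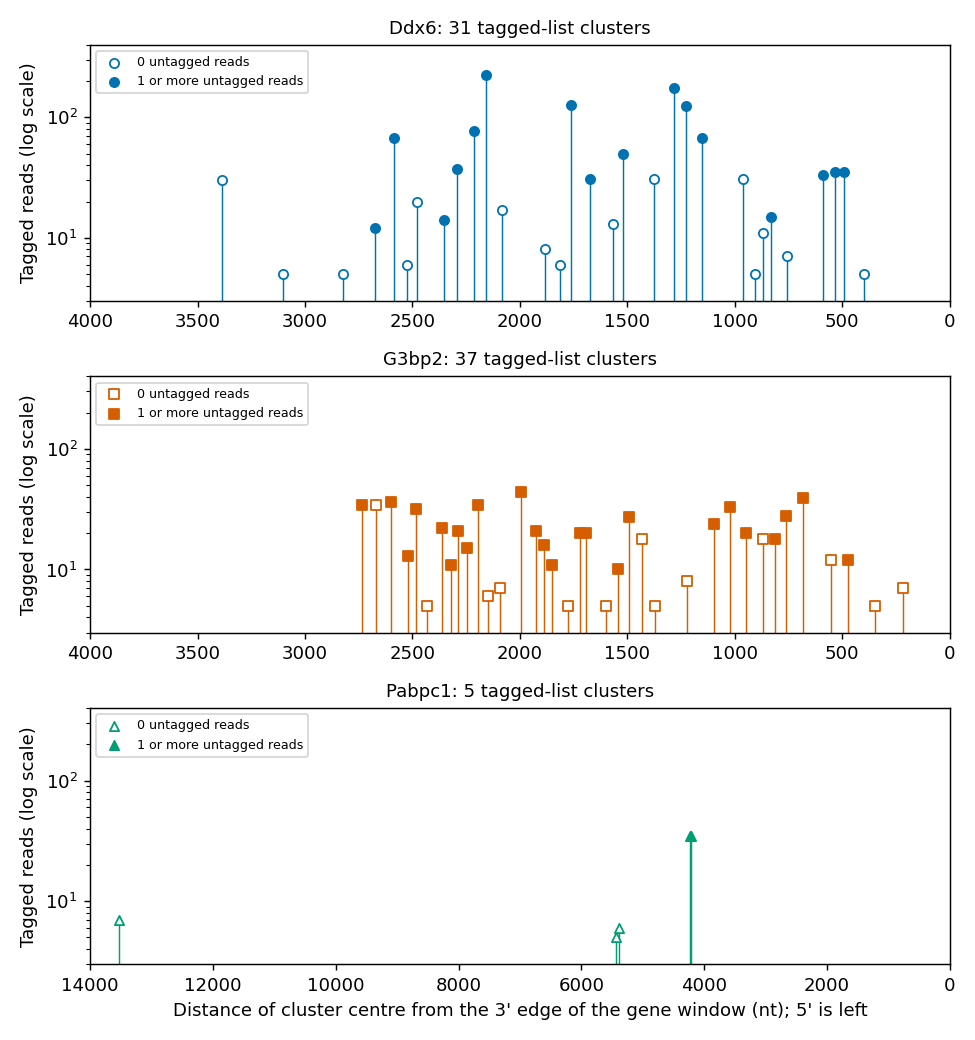
Tagged reads of each cluster (vertical axis, log scale) against the distance of the cluster centre from the 3′ edge of the gene window in nt (horizontal axis, 5′ to the left), with 1 panel per gene; open symbols are clusters at which the untagged library had 0 reads. Ddx6 clusters lie within the last 3500 nt and reach 224 reads, and G3bp2 clusters lie within the last 3000 nt and reach 44 reads. The 5 Pabpc1 clusters all lie over 4000 nt from the edge on a wider axis, with 2 of them at nearly the same place.

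No cluster of either list lay on the opposite strand in the 3 windows, and none crossed a window edge. The nearest tagged-list clusters outside the windows on the same strand were far off. Upstream of Ddx6 the next cluster lay 54267 nt away, with 24 reads and a listed log2 ratio of 1.06, and downstream 412168 nt away, with 10 reads and a ratio of 1.87. For G3bp2 the nearest were 200175 nt upstream (9 reads) and 3391575 nt downstream (6 reads), and for Pabpc1 161076 nt upstream (6 reads) and 116380 nt downstream (5 reads). The windows therefore do not cut through a run of clusters. The closest same-strand clusters of the untagged list were 843411 nt from the Ddx6 window, 738878 nt from G3bp2 and 6981228 nt from Pabpc1. That list holds clusters enriched over the tagged library, so its distance from the windows does not measure background there. The untagged library had reads at 16 of the Ddx6 clusters, 24 in G3bp2 and 2 in Pabpc1.

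Ddx6 held the clusters with the most reads. Its 31 clusters had a median of 30 tagged reads and ranged from 5 to 224, and 4 of them had at least 100 reads, a size that 207 clusters (1.77%) of the whole tagged list reached. The 224 reads were at chr9:44446829-44446854, against 6 reads of the untagged library. The list compares tagged reads with untagged reads scaled up by a factor of 1.5, taken here as the depth ratio of the libraries. After division by this factor (1.5009) the ratio at this cluster was 24.9 (exact interval 11.3 to 68.5). It was also the Ddx6 cluster with the lowest listed p, and 106 of its reads, 47.3%, lay at 1 position.

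The other Ddx6 clusters with at least 100 reads lay 3′ of it. At chr9:44447226-44447251 there were 127 tagged reads against 2, a depth-adjusted ratio of 42.3 (11.5 to 353), with 65 reads at the highest position. At chr9:44447704-44447729 there were 175 against 5, a ratio of 23.3 (9.8 to 72.7). At chr9:44447760-44447785 there were 123 against 4, a ratio of 20.5 (7.8 to 76.4). The intervals of these 4 clusters overlap, so their ratios cannot be ordered at this depth.

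Clusters of over 60 reads in Ddx6 lay in 2 stretches and at 1 place between them. In the first stretch, between 44446401 and 44446854, the clusters had 67, 6, 20, 14, 37, 77 and 224 reads in 5′ to 3′ order. The 37 reads at chr9:44446671-44446745 stood against 5 untagged reads, which gave the lowest listed log2 ratio of the gene, 2.08. The second stretch, from 44447597 to 44447873, had 31, 175, 123 and 67 reads in 4 consecutive clusters. Between them lay the cluster of 127 reads, with neighbours of 6 and 31, and a cluster of 50 reads at chr9:44447457-44447499. At the 5′ end of the locus, chr9:44445602-44445627 had 30 reads against 0, and the next 2 clusters had 5 reads each. For the cluster of 30 reads the exact interval of the ratio starts at 5.09. With 3 untagged reads in place of 0 its ratio would be 6.66. At the 3′ end, chr9:44448389-44448436, 44448453-44448478 and 44448481-44448532 had 33, 35 and 35 reads against 1 each, followed by the last cluster, chr9:44448588-44448613, with 5 against 0. The neighbours of 35 reads are 2 nt apart and carry the same 3 listed values. Their highest positions differ, 44448465 with 12 reads and 44448493 with 4, so whether they hold the same reads is not known.

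G3bp2 had more clusters with fewer reads in each. Its 37 clusters had a median of 18 tagged reads and ranged from 5 to 44. The largest was 2.44 times the median, against 7.47 times in Ddx6, and no G3bp2 cluster reached 50 reads, where Ddx6 had 8. The cluster with 44 reads, chr5:92482956-92483030, had 1 untagged read, a depth-adjusted ratio of 29.3 (4.99 to 1184), and 24 of its reads lay at 1 position. It also had the lowest listed p of the gene. The highest listed log2 ratio of the 73 clusters, 5.13, was at chr5:92483656-92483681, with 34 reads against 0. The exact interval of its ratio starts at 5.81, and with 3 untagged reads in place of 0 the ratio would be 7.55. Against 0 reads the log2 ratio is set by the tagged reads and by the 1 that is added to each count, so 5.13 is not a measured fold.

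Clusters of over 30 reads lay in the 5′ part and in the 3′ part of the G3bp2 locus, with clusters of 5 to 28 reads between them. From the 5′ end, chr5:92483694-92483780 had 34 reads against 2, followed by 34 against 0, 36 against 1, 13 against 1 and 32 against 1. Further 3′, chr5:92483184-92483209 had 34 reads against 1, and the clusters of 44 and 21 reads at 92482956 and 92482901 were followed by 16 and 11. In the 3′ part, chr5:92482008-92482033 had 33 reads against 1, and chr5:92481635-92481730, the longest cluster of the 3 genes at 96 nt, had 39 against 2. The last 2 clusters, at 92481336 and 92481194, had 5 and 7 reads against 0. In steps of 500 nt from the 3′ edge, the highest cluster had 12, 39, 33, 44, 34 and 36 reads. In the 7 steps of Ddx6 the highest clusters had 35, 35, 175, 127, 224, 67 and 30.

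G3bp2 clusters also lay closer together. The median gap between neighbours was 23 nt in G3bp2 and 41.5 nt in Ddx6, and the longest gaps were 121 and 255 nt. Gaps of at most 50 nt made up 29 of 36 in G3bp2 and 17 of 30 in Ddx6, and clusters covered 56.5% and 35.4% of the loci. In the clusters of 26 nt with a listed highest position, that position lay 12 nt from the start. Cluster lengths may thus be set by how the list was made. Gaps and coverage therefore need not measure the width of RNA that held reads. When clusters at most 50 nt apart were merged, 8 stretches were left in G3bp2, 14 in Ddx6 and 3 in Pabpc1, so by this count the order of the first 2 genes turns. Whether neighbours this close are separate contacts is not known. The G3bp2 neighbours chr5:92482710-92482735 and chr5:92482680-92482705 carry the same 3 listed values, with 4 and 5 reads at different highest positions. Positions with the most reads in neighbouring clusters were a median of 57 nt apart in G3bp2 and 81 nt in Ddx6.

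Pabpc1 had 5 clusters, and those with the most reads lay at 1 place. At chr15:36529218-36529243 there were 35 tagged reads against 1 untagged read, a depth-adjusted ratio of 23.3 (3.92 to 947), with 19 reads at position 36529230. The other cluster of 35 reads, chr15:36529209-36529231, overlaps it by 14 nt, has its highest position at the same base with the same 19 reads in the last column of the list, and carries the same 3 listed values. The other column of reads at the highest position gives 35 for this cluster, so the columns disagree there. They are therefore counted by the list as 2 clusters but need not hold different reads. Further 5′, chr15:36530366-36530404 had 6 reads and chr15:36530418-36530443 had 5, both against 0. The remaining cluster, chr15:36538515-36538553, had 7 reads against 0 and lay 447 nt from the 5′ edge of the window. Neither Ddx6 nor G3bp2 had a listed cluster near the 5′ edge of its window, which need not be the gene start. At 5 to 7 reads against 0 the two-sided exact intervals of the ratio began between 0.61 and 0.96, below an even level. These 3 clusters thus rest on few reads. The same bounds held for the Ddx6 and G3bp2 clusters of 5 to 7 reads against 0. In G3bp2 the interval of a cluster with 10 reads against 1 also began below an even level, at 0.948.

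Of the 3 genes, Pabpc1 alone had a cluster named in the form of a splice junction, 1 of the 38 in the tagged list. The name gives positions 36529187 and 36530347 and the number 45. All 38 junction-named clusters touched a stretch of 45 nt that starts at 1 of the 2 positions in their names, so the positions are read here as starts of 45-nt flanks on either side of a junction. This reading is inferred, and the base from which the names count is unknown. In Pabpc1 it would place the end of the 3′ exon flank at 36529232, the gap at 1115 nt, and the highest position, 36529230, beside that exon edge. The cluster of 6 reads begins 19 nt beyond 36530347, on the other side of the gap, and the cluster of 5 reads lies further 5′.

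The untagged library had 0 reads at 15 of 31 Ddx6 clusters (48.4%, interval 30.2 to 66.9), 13 of 37 in G3bp2 (35.1%, 20.2 to 52.5) and 3 of 5 in Pabpc1 (60%, 14.7 to 94.7), where the background over the whole tagged list was 69.9%. These shares depend on reads per cluster, since a cluster of 8 or fewer reads was listed only against 0. The intervals of the 3 genes overlap. Among clusters of at least 20 reads they were 4 of 17 in Ddx6 (23.5%), 1 of 17 in G3bp2 (5.88%) and 0 of 2 in Pabpc1, beside 16.1% in the list. The 2 in Pabpc1 overlap and need not hold different reads. The most untagged reads at any cluster were 6 in Ddx6, 3 in G3bp2 and 1 in Pabpc1, before scaling.

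Ddx6 had the higher ratios. The median listed log2 ratio was 3.5 in Ddx6 (interval 2.81 to 4.15), 2.81 in G3bp2 (2.58 to 3.13) and 3 in Pabpc1 (range 2.58 to 3.58), and 2.81 over the whole list. A ratio of at least 3 was listed for 20 of 31 Ddx6 clusters (64.5%), 16 of 37 in G3bp2 (43.2%) and 3 of 5 in Pabpc1, with a background of 38.7% in the list. Of those with at least 20 reads, 15 of 17 in Ddx6 and 10 of 17 in G3bp2 reached it, beside 46.3%. Both Pabpc1 clusters of this size did too, but they overlap and need not hold different reads. With this pair counted once, 2 of 4 Pabpc1 clusters reached a ratio of 3. A ratio of at least 4 was listed for 10 Ddx6 clusters, 3 in G3bp2 and 0 in Pabpc1, and the share of the list at this limit was not computed. All 3 in G3bp2 and several in Ddx6 had 0 untagged reads, so these ratios are set by the tagged reads and are not measured folds. The intervals of the Ddx6 and G3bp2 medians overlap. No test of the difference was made because each group had 1 library and the genes were chosen on these lists.

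Ratios were also set side by side within ranges of tagged reads. At 50 or more reads, the 8 Ddx6 clusters had a median log2 ratio of 4.22, against 1.37 for the 571 tagged-list clusters of this size and 3.96 for the 190 of them in other loci of at least 10 clusters. G3bp2 had no cluster of this size. At 20 to 49 reads the median was 3.58 for 9 Ddx6 clusters and 3.13 for 17 G3bp2 clusters, beside 2.94 for the list and 3.37 for the other dense loci. In this range the untagged library had 0 reads at 4 of the 9 in Ddx6 and 1 of the 17 in G3bp2, where the other dense loci had 30.6%. At 9 to 19 reads the medians were 3 for 6 clusters in Ddx6 and 2.22 for 11 in G3bp2, beside 3.32 in the list and in the other dense loci. Of these 3 ranges, G3bp2 lay below the other dense loci in the 2 it had clusters in, and Ddx6 lay below them at 9 to 19 reads and above them in the others. No test of these differences was made.

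**Figure D2:**
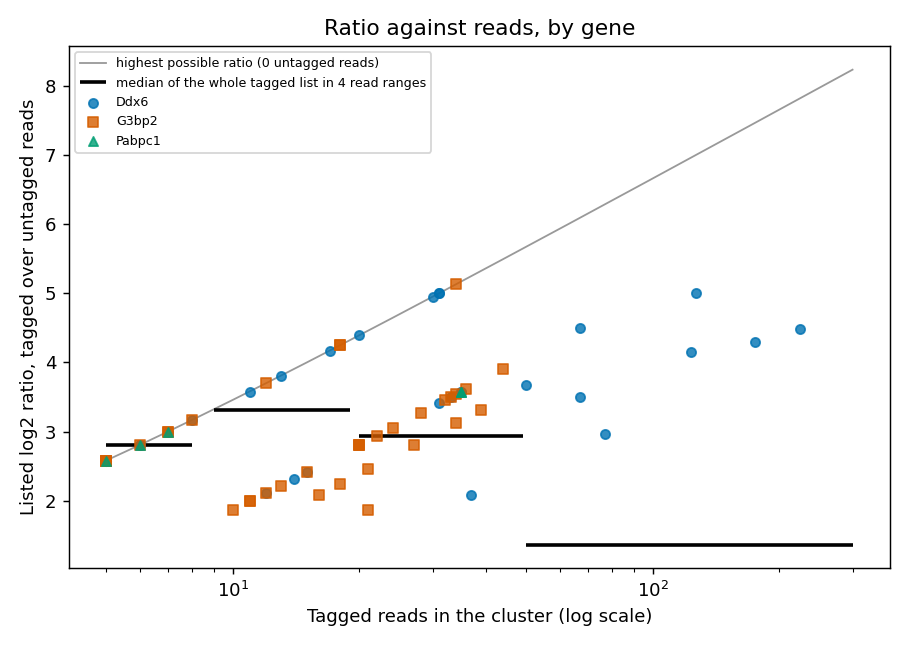
Listed log2 ratio of tagged over untagged reads (vertical axis) against tagged reads (horizontal axis, log scale) for the 73 clusters, with the ratio that 0 untagged reads gives (grey line) and the median of the whole tagged list in 4 ranges of reads (black bars). Clusters on the grey line have 0 untagged reads; the 8 Ddx6 clusters of 50 or more reads lie well above the list's median of 1.37, and G3bp2 clusters with untagged reads form a band that rises from 1.87 to 3.91.

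The listed ratios use scaled reads, so unscaled reads were also set against the depth factor. In a one-sided exact binomial test on unscaled reads with the depth factor, 27 of 31 Ddx6 clusters (87.1%), 32 of 37 in G3bp2 (86.5%) and 4 of 5 in Pabpc1 had a p under 0.05 without adjustment, beside 74% of the tagged list. The clusters that did not were 4, 5 and 1, each with 5 reads against 0. Clusters of 6 or 7 reads against 0 passed this one-sided test, though their two-sided intervals of the ratio began below an even level. Clusters entered the list through a p of at most 0.0494 on the same reads, so these shares describe how far the listing holds under the depth factor and are no independent evidence of enrichment. The test compares the reads of 2 libraries, not the conditions.

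Reads were spread over several positions in Ddx6 and G3bp2. Of the clusters with at least 20 reads, 15 of 17 in Ddx6 (88.2%) and 14 of 17 in G3bp2 (82.4%) had at most 50% of their reads at the highest position, where the background in the list was 56.4%. The median share at that position was 34.3% in Ddx6 and 29.4% in G3bp2, beside 45.2% in the list. G3bp2 had the 1 cluster over 75%, chr5:92482467-92482514, with 22 of 27 reads at 1 position. In Ddx6 the highest share was 51.5%, at chr9:44448389-44448436. Both Pabpc1 clusters of this size stood at 54.3%, from the same 19 reads. For the junction-named one the other column lists all 35 reads at the highest position, which would put it over 75%. A cluster's reads can include those of its neighbours, so a low share can also go with close spacing, and the part of spacing in these values was not tested.

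**Figure D3:**
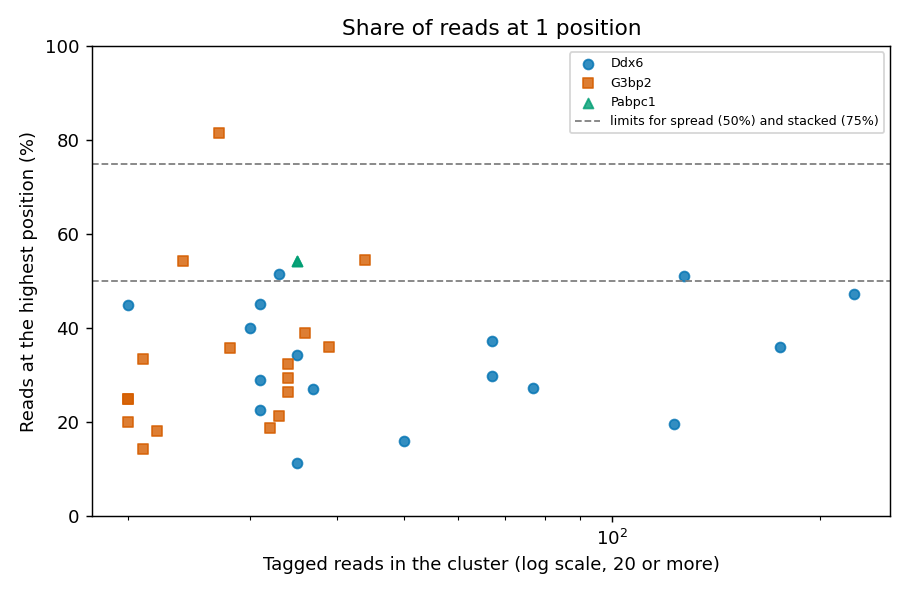
Share of reads at the highest position in percent (vertical axis) against tagged reads (horizontal axis, log scale) for clusters of at least 20 reads, with dashed lines at 50% and 75%. All but 2 of the 17 Ddx6 clusters and 3 of the 17 G3bp2 clusters lie at or below 50%, and the 2 Pabpc1 clusters coincide at 54.3%.

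Region C2 was the most common class in Ddx6 and G3bp2. The authors name clusters as region B, C1 or C2 without a key in the sources used here. Clusters named only C2 were 22 of 31 in Ddx6, 28 of 37 in G3bp2 and 2 of 5 in Pabpc1, beside 42% of the list, and clusters named only B were 7, 6 and 1, beside 49.1%. In Ddx6 the B clusters had up to 127 reads (median 30) and a median log2 ratio of 3.42, close to the 3.54 of its C2 clusters. In G3bp2 the B clusters had at most 12 reads (median 5) and a median ratio of 2.58, the value that 5 reads against 0 gives. A cluster with more than 1 region name was more common in G3bp2, 20 of 37 with up to 6 names, than in Ddx6, 11 of 31 with up to 4. Clusters of exactly 26 nt, the usual length in the list (79.5%), were 21 of 37 and 22 of 31.

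Among the 226 tagged-list loci with at least 10 clusters, the ranks of Ddx6 and G3bp2 differed by measure. The number of clusters entered the choice of the genes, so ranks by number describe that choice. By number of clusters, with ties sharing a rank, G3bp2 ranked 5th and Ddx6 15th of all 4724 loci, where Pabpc1's 3′ locus of 2 clusters shared rank 991 with other loci of that size. Within the 226, Ddx6 ranked 8th by the reads of its largest cluster, 9th by median reads (30, where the median locus had 9.5) and 15th by median log2 ratio (3.5, where the median locus had 3). G3bp2 ranked 87th, 31st (18 reads) and 143rd on the same measures. By clusters per kb G3bp2 was 31st, at 14.3, and Ddx6 97th, at 10.3, with a median of 9.44. Both were low in the share of clusters with 0 untagged reads, ranking 191st and 207th, at 48.4% and 35.1% where the median locus had 70%. These ranks describe 2 libraries and do not allow for how much of each mRNA the cells held, which was not measured here.

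**Figure D4:**
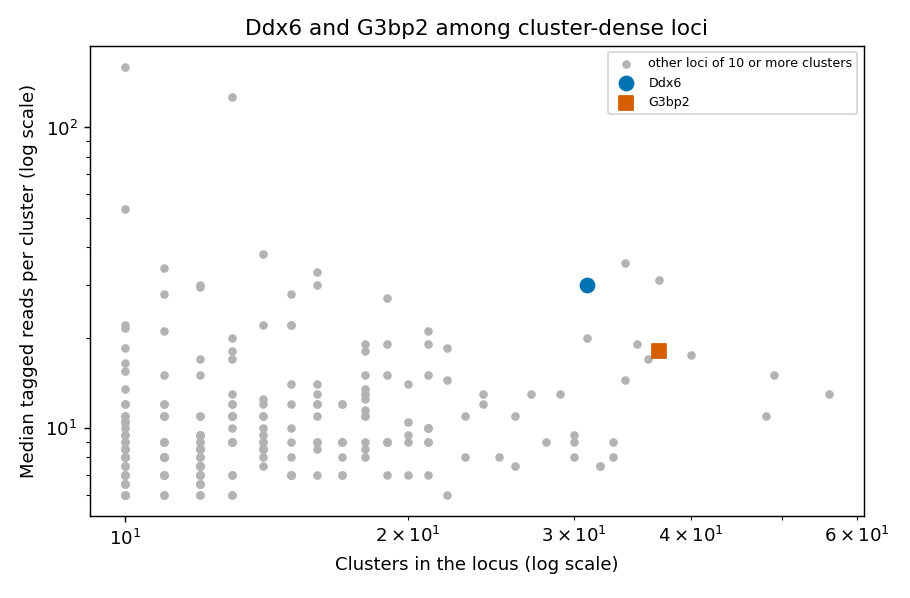
Median tagged reads per cluster (vertical axis, log scale) against the number of clusters (horizontal axis, log scale) for the 226 tagged-list loci of at least 10 clusters, 1 point per locus. Ddx6 (31 clusters, median 30 reads) and G3bp2 (37 clusters, median 18 reads) are both far to the right, where the median locus has 13 clusters and 9.5 reads.

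The loci most like each gene were picked by distance in 4 standardised measures: clusters, span, median log2 ratio and share with 0 untagged reads. For Ddx6 the nearest was chr16:44159767-44162358, plus strand, with 36 clusters, a median ratio of 3.54 and a largest cluster of 44 reads (distance 0.685), followed by chr2:103605671-103608414, minus strand, with 21 clusters, and chr5:136384374-136386864, minus strand, with 34 clusters and up to 262 reads. For G3bp2 the nearest was chr9:72595120-72597618, plus strand, with 35 clusters, a median of 2.74 and up to 85 reads (distance 0.511), followed by chr19:44377789-44380845, plus strand, with 40 clusters and up to 57 reads, and chr18:35062611-35065752, minus strand, with 31 clusters and up to 375 reads. Neither gene was among the 3 nearest loci of the other. The loci share the same 2 libraries, and the likeness is one of cluster layout only.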

How the data were processed

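Each of 2 iCLIP libraries was given as 1 list of clusters enriched over the other library, in mm9 per the submitters' processing notes. How reads were aligned, clusters called and PCR duplicates treated is not given in the sources used here. The deposited lists hold read counts: the reads at the highest position, equal in 2 columns in 98.8% of tagged-list rows. They also hold, joined in 1 column without a header, the cluster's reads, the log2 of own over other reads (1 added to both), and a p-value (exact binomial, one-sided); this meaning was inferred from the deposited values. The other library's reads were recovered as the whole number that gives back the ratio (within 0.006) and the p. This gave a number for 100% of tagged-list clusters, with several candidates at 5. All were rounded multiples of a factor between 1.5 and 1.5017, by construction of the fit, and 1.5009 was used. The recovery and the joining into loci were tested on simulated data.

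The highest position was read from the last column as an offset from the cluster start. Distances run to the window's 3′ edge, and a cluster counts as within the last 4000 nt by its centre. Loci join clusters at most 1000 nt apart on 1 strand. Intervals on shares and ratios are exact (Clopper-Pearson, 95%), those on medians are from order statistics. Named were, for each gene, the clusters with the lowest p, the most reads, the outermost positions or a junction name, and the 3 nearest loci; further clusters were named after their values were seen. The genes, windows and measures were chosen with earlier results of these data known. Other RNA granule genes and cell markers were not analysed here, for want of mm9 positions. Sequences are not shown, and promoters were not used. Python 3.11.15, pandas 2.3.3, NumPy 2.4.6, SciPy 1.17.1 and matplotlib 3.10.9 were used.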

Additional observations from a re-analysis of the deposited data

How the results depend on the processing

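Of 92 alternatives over the 3 genes, 71 stayed within their limits (1.5 times a count or rank, or the 95% interval of a share, median or ratio) and 21 moved beyond them; the latter mostly kept fewer or other clusters by construction. Merging clusters at most 50 nt apart left 14 in Ddx6, 8 in G3bp2 and 3 in Pabpc1. In Pabpc1, 2 clusters had at least 10 reads and 3 were in the 50% of the list with the lower p. The last 2000 nt held 61.3% of Ddx6 and 64.9% of G3bp2 clusters, and the last 6000 nt held 80% of those of Pabpc1. Shares with 0 untagged reads at 20 or more reads were 23.5%, 5.88% and 0%, and at 10 or more reads 14.3% in G3bp2 and 0% in Pabpc1. From unscaled reads the median log2 ratio of Pabpc1 was 2.41. With a limit of 33% at the highest position, 47.1% of Ddx6 clusters were spread. At a log2 ratio of at least 2 the counts were 31, 35 and 5, and at 20 or more reads 10 G3bp2 clusters reached a ratio of 3. Ddx6 ranked 9th with loci joined at 500 nt, and Pabpc1 624th at 2000 nt. Counting neighbours with the same 3 listed values once, chosen after seeing the data, moved no result beyond its limit. No paired analysis was possible because there is 1 library per group. Reads limit the ratios: against 1 untagged read the intervals span over 2 orders of magnitude.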
